A study of Mus musculus with 9 samples.

Results

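The 38 heat shock genes described here encode the chaperones of the cytosol and the mitochondria, their J-domain and other co-chaperones, part of the TRiC chaperonin, and the transcription factors Hsf1 and Hsf2. They were chosen by name, as families, out of 35934 genes in the deposited mouse uterus RNA-seq data. Grouped by role, they comprise 9 genes of the HSP70 and HSP110 family, 2 HSP90 genes, 6 small heat shock protein genes, 5 mitochondrial chaperone genes, 7 J-domain protein genes, 4 co-chaperone genes, 3 TRiC subunit genes and 2 heat shock factor genes. One of the HSP70 genes, Hspa13, encodes a relative of HSP70 that sits on microsomes, so it is in the set by family and not by compartment.

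The uteri came from immature C57BL/6 female mice that were 25 days old per the sample labels (the series text also gives 21 days) and that had all been primed with hormones for 3 days, with a single dose of 1 mg progesterone and with estradiol at 10 mg/kg/day. Each uterine horn then received 50 µl of fluid. The control group received embryo culture medium that had held no embryo. The competent group received medium pooled from 9 human embryos judged competent, and the arrested group received medium pooled from 18 human embryos whose development was arresting. Each group has 3 libraries, and each embryo group stands for 1 pool of medium. Whether the 3 libraries in a group stem from different mice is not given in the labels, so the p-values measure the spread between these libraries, which may be technical in part.

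Heat shock proteins bind unfolded or partly folded polypeptides and use cycles of ATP binding and hydrolysis to release them for folding. J-domain proteins bring clients to HSP70 and start its ATP hydrolysis, nucleotide exchange factors such as the HSP110 and BAG proteins let the client go, and HSP90 completes the folding of kinases and steroid receptors, among them the progesterone and estrogen receptors that act in the uterus. Some of these genes are expressed in every cell at all times, and others are switched on by HSF1 when misfolded proteins accumulate, through arrays of the 3-base unit GAA and its complement TTC in their promoters.

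Expression values are fragments per kilobase of transcript per 1000000 mapped fragments (FPKM), summed over the annotated transcripts of a gene. 35 of the 38 genes were above 0 in every library; Hspa2, Hspb2 and Hspb6 were each listed at 0 in at least 1 library. 36 were tested. Hspb2 was left out because its mean was under 1 FPKM, and Hspb6 because it was listed at 0 in 1 library while the other libraries averaged over 5 FPKM. Hspa2 was kept at a mean of 1.21 FPKM, which rests on 7.04 FPKM in competent replicate 3. In every other library Hspa2 was at 1.17 FPKM or less. A second quantity, the fragment share, multiplies each transcript's FPKM by its length, adds these products over the annotated transcripts of a gene and the transcripts that Cufflinks assembled at its splice junctions, and gives the sum as parts per 1000000 (ppm) of the library's total. It depends less on how fragments were divided among the transcripts of 1 gene. Assembled transcripts with 1 exon, or whose splice junctions matched no annotated gene or more than 1, were not counted. A share can therefore miss fragments. Some zeros remained, as for the mitochondrial protease gene Htra2, at 0 ppm in arrested replicate 3 and 31.8 ppm in arrested replicate 1.

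Depth, as coverage times transcript length, lay between 1279 and 2360 Mb per library. Uterine markers were present throughout: the 8 epithelial markers summed to between 1790 and 2600 FPKM and the 12 smooth muscle markers to between 887 FPKM (arrested replicate 1) and 2810 FPKM (competent replicate 2). By group, the 9 smooth muscle markers that were tested all had a negative arrested minus competent difference (median -0.91, 1 at an unadjusted p under 0.05) and all a positive competent minus control difference (median 0.44), and 0 passed the threshold. Their sums nonetheless overlapped between arrested and competent libraries, with 2190 FPKM in arrested replicate 2. The 8 adipocyte markers summed to 1410 FPKM in arrested replicate 2 and to 182 FPKM or less in every other library, and the 3 erythroid markers summed to between 557 and 894 FPKM in control, 430 and 2300 in competent and 1190 and 2790 in arrested libraries. All 3 erythroid markers had an unadjusted p under 0.05 in arrested minus control (median 1.35), and 0 passed the threshold. Of the 7 stromal fibroblast markers tested, 6 had a positive arrested minus competent difference (median 0.59) and 6 a negative competent minus control difference (median -0.53). Of the 6 endothelial markers, 5 were positive and then 6 negative in the same order (medians 0.39 and -0.35). In both lists 0 passed the threshold. Of the 7 epithelial markers tested, 5 had a negative arrested minus competent difference (median -0.16, 2 at an unadjusted p under 0.05, smallest adjusted p 0.0777). All 5 mesothelial markers had a positive competent minus control difference (median 0.95). Of the 7 leukocyte markers tested, 6 were negative in competent minus control (median -0.50) and 6 in arrested minus control (median -0.30). In these lists, too, 0 passed. The part of these cell types in the differences of the heat shock genes was not tested, apart from the correlations with smooth muscle markers. In whole uterus, fewer cells of a type and less RNA per cell cannot be told apart. Leaving out any single library, these included, gave no member past the threshold.

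No member of the set changed past the threshold in any of the 3 comparisons (limma on log2(FPKM + 1), adjusted p under 0.05 over 12039 genes). For arrested against competent medium, 0 of 36 members passed, where 0.0914% of all genes tested did, and 2 members had an unadjusted p under 0.05, where 11.7% of all genes did. For competent medium against control, 0 of 36 passed beside 0.0249% of all genes, and 1 member had an unadjusted p under 0.05 beside 5.52%. For arrested medium against control, 0 of 36 passed beside 0.00831% of all genes, and 0 members had an unadjusted p under 0.05 beside 5.44%. A test of any difference among the 3 groups called 0 members and 0.0498% of all genes, and the smallest adjusted p of a member in it was 0.575, for Hspa4. The competent and arrested groups are set against the same 3 control libraries, so the comparisons with control are not independent.

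Members differed in both directions in every comparison. The size of the log2 difference, without its sign, had a median over the 36 members of 0.207 for arrested minus competent, 0.207 for competent minus control and 0.140 for arrested minus control, beside 0.237, 0.185 and 0.191 over all genes tested. The median signed log2 difference was -0.00043, 0.086 and -0.0083 in the same order, beside -0.0092, -0.011 and -0.020 over all genes tested. Members with a positive difference numbered 17, 22 and 18 of 36 in the same order, beside 48.8%, 48.3% and 46.9% of all genes tested. The libraries nonetheless leave room for changes of moderate size in single genes. The 95% interval of the difference lay within 2-fold in both directions for 26, 28 and 28 of the 36 members in these comparisons, as it did for 60.5%, 64.5% and 64.6% of all genes tested, and it lay within 1.5-fold for 12, 12 and 15. With the fragment share, 33, 34 and 33 of the 36 had intervals within 2-fold, beside 73.4%, 78.3% and 78.4% of all genes. Those whose interval still reached 2-fold were Hspa2 and Hspb7 in all 3 comparisons and Dnajb5 in the 2 that involve the arrested group.

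**Figure D1:**
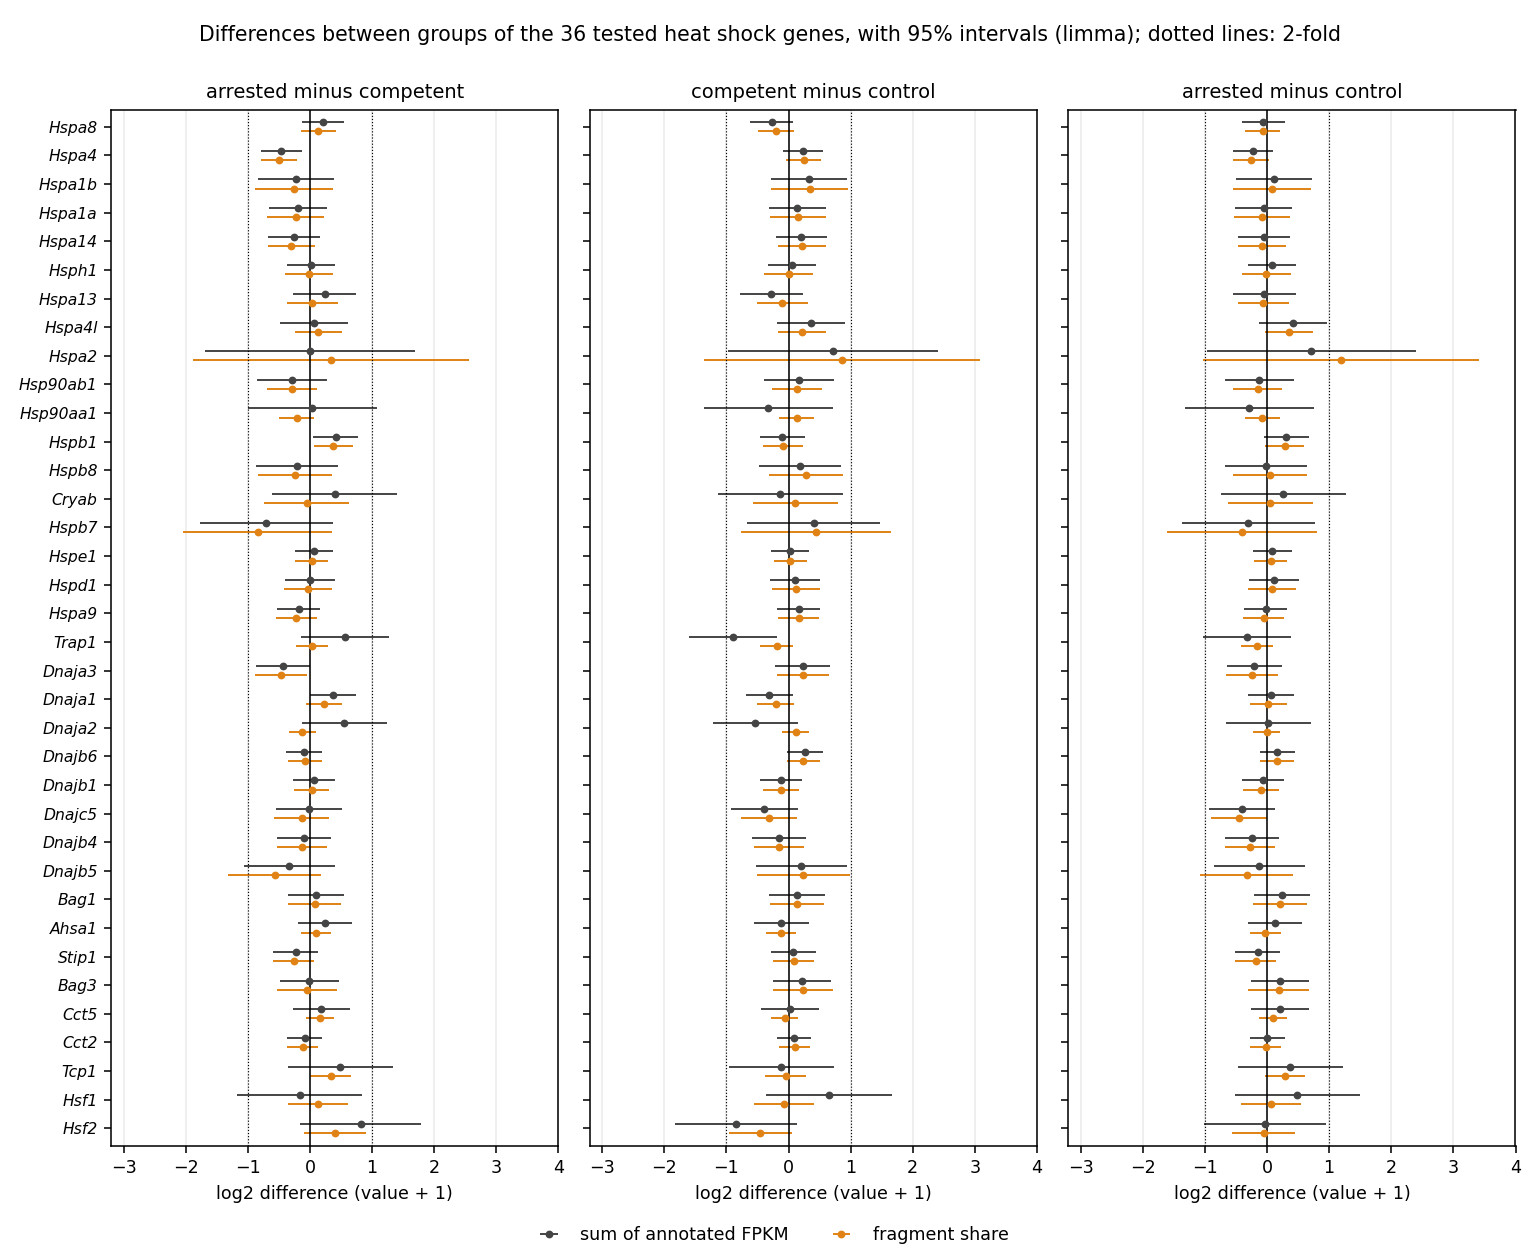
Each row is 1 of the 36 tested heat shock genes, grouped by role; points are differences between group means in log2 units (value + 1) and bars their 95% intervals, in dark grey for summed annotated FPKM and in orange for the fragment share. In arrested minus competent, Hspa4 lies at -0.46 and Hspb1 at 0.41, and the widest intervals belong to Hspa2, which is near 0 FPKM in most libraries.

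Levels were compared between genes as the fragment share per kilobase of the longest detected coding transcript, in ppm per kb. On this scale 2 constitutive chaperones stood far above the rest. Hsp90ab1 averaged 755 ± 120 (SD over 9 libraries) and Hspa8 averaged 739 ± 67.7, and their ranges overlapped. Together they made up between 42.4% and 53.0% of the summed level of all 38 genes. Next came Hspe1 at 239 ± 18.6 and Cct5 at 188 ± 11.9, whose ranges overlapped neither each other nor the neighbouring genes in the order. From Cct2 at 134 ± 9.73 down, each gene's range overlapped that of the next. Hspb1 (122 ± 20.1), Tcp1 (114 ± 17.6), Dnaja1 (107 ± 11.9), Hsp90aa1 (80.6 ± 8.28) and Bag1 (77.6 ± 14.3) completed the upper 10. At the bottom on this scale were Hspa4l at 1.98 ± 0.320, Hspa2 at 1.10 ± 2.05 and Hspb2 at 0.582 ± 0.415. The place of Hspa4l rests on its transcript length of 9479 bases. By mean FPKM, at 3.97, Hspa4l was above Hsf2 (3.66) and Dnajb5 (3.24). The places at the top depend on short transcripts. Those under 1000 bases held 85.3% of the FPKM of Hspa8, 55.6% of that of Hsp90ab1 and 100% of that of Hspe1 and Hspb1. By the full coding transcript alone, Hsp90ab1 had between 489 and 773 FPKM and Hspa8 between 275 and 381, beside 244 to 315 for Hspe1.

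The summed level of the 38 genes was nearly even over the libraries. It was 3148, 3205 and 3491 in the control libraries, 3279, 3226 and 3310 in the competent libraries, and 3169, 3146 and 3307 in the arrested libraries, so the 3 groups overlapped. The HSP70 and HSP110 genes contributed between 24.8% and 29.3% of it, the HSP90 genes between 21.6% and 29.8%, the mitochondrial chaperones between 11.9% and 16.4%, and the 3 TRiC subunits between 12.3% and 15.3%. J-domain proteins contributed between 6.54% and 8.29%, co-chaperones between 5.13% and 7.49%, and small heat shock proteins between 3.81% and 6.00%. The 2 heat shock factors contributed under 1%, from 0.448% to 0.679%.

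**Figure D2:**
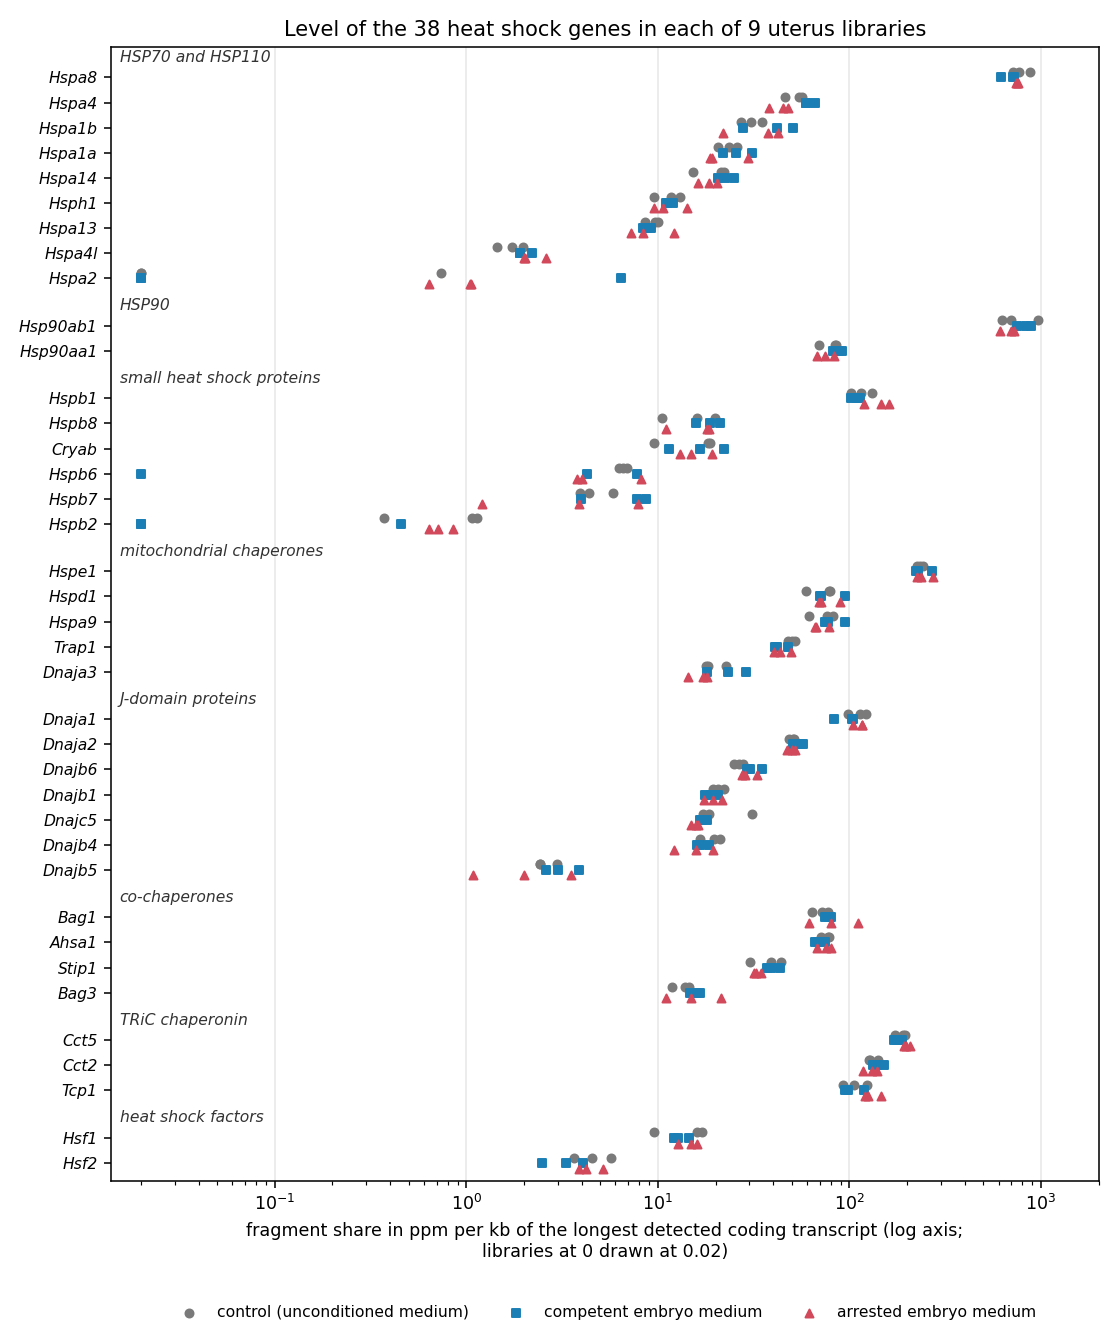
Each row is 1 of the 38 genes, grouped by role and sorted by mean level within its group; each point is 1 library, with the level in ppm per kb on a log axis (libraries at 0 are drawn at 0.02). Hsp90ab1 and Hspa8 lie highest, at means of 755 and 739, Hspb2 lies lowest, at 0.582, and the arrested and competent libraries do not overlap in 11 of the 36 tested genes, beside 20.6% of all genes tested.

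Among the HSP70 genes, Hspa8, which encodes the constitutive HSC70, had 2294, 2054 and 2571 FPKM in the control libraries, 2090, 1573 and 2098 in the competent libraries, and 2307, 2228 and 2072 in the arrested libraries. All 3 groups overlapped, with competent replicate 2 the lowest and control replicate 3 the highest. The log2 difference of arrested minus competent was 0.21 (95% interval -0.13 to 0.55, adjusted p = 0.652). Most of the summed FPKM of Hspa8, 85.3%, stood on annotated transcripts shorter than 1000 bases, to which Cufflinks gives a high FPKM for few fragments. A retained-intron model of 456 bases held between 37.3% and 41.7% of the gene's FPKM and a coding model of 606 bases between 31.3% and 44.0%, and the full coding transcript of 2019 bases held between 12.5% and 22.4%. By fragment share, which weights by length, the arrested libraries had 1524, 1496 and 1505 ppm and the competent libraries 1455, 1247 and 1437. The arrested libraries were then the higher ones without overlap, and the difference was 0.13 with an adjusted p of 0.669. The gene also hosts small nucleolar RNA genes in its introns.

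The stress-inducible HSP70 genes Hspa1a and Hspa1b were expressed in all groups and ranked 20 and 18 of the 38 genes by mean level per kb. Their FPKM spanned 1.64-fold for Hspa1a and 2.20-fold for Hspa1b across the 9 libraries. Hspa1a (chr17:35106144-35109069, minus strand, mm9) had 22.8, 25.6 and 28.4 FPKM in the control libraries, 33.9, 27.6 and 24.0 in the competent libraries, and 22.2, 20.7 and 32.1 in the arrested libraries. Hspa1b (chr17:35093381-35096183, minus strand) had 29.9, 33.4 and 38.4, then 55.7, 45.5 and 30.5, then 25.3, 41.7 and 45.8 FPKM in the same order. In neither gene did any group stand clear of another: the arrested minus competent difference was -0.20 (95% interval -0.66 to 0.27, adjusted p = 0.778) for Hspa1a and -0.22 (-0.84 to 0.39, adjusted p = 0.820) for Hspa1b. The constitutive gene outweighed the inducible copies in every library, since the level of Hspa8 per kb was between 23.3 and 39.6 times that of Hspa1a and between 14.2 and 34.7 times that of Hspa1b. The 2 copies are so alike that reads can be assigned to either: their coding sequences differ at 11 of 1929 aligned positions (99.4% identity), and their single values are uncertain for that reason. An annotated antisense gene overlaps Hspa1a, and the library kit does not mark strand.

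The likeness of the 2 copies extends into the promoter, where the 250 bases before the annotated start differ at 3 positions. Both are shown here, 5′ to 3′ on the gene's strand, from RefSeq on GRCm38.p6 (chr17:34972157-34972406 for Hspa1a and chr17:34959239-34959488 for Hspa1b), with capitals on the pair of heat shock units described below.
Hspa1a: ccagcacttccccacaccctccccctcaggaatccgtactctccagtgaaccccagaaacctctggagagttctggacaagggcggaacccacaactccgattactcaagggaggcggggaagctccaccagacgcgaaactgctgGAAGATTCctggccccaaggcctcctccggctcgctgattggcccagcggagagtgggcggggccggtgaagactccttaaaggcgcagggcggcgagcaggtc
Hspa1b: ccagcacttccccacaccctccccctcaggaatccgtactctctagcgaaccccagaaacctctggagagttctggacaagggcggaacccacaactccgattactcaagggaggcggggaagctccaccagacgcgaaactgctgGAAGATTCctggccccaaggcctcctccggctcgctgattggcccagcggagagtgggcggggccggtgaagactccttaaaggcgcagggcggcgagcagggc
In each copy the pair lies from 104 to 97 bases before the start.

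The HSP110 gene Hspa4, a nucleotide exchange factor for HSP70, had the smallest p of the set. Hspa4 (chr11:53073316-53113959, minus strand) had 60.0, 61.4 and 50.2 FPKM in the control libraries, 65.3, 71.7 and 65.0 in the competent libraries, and 52.1, 42.3 and 52.2 in the arrested libraries. All competent libraries were above all control libraries and above all arrested libraries, while the control and arrested libraries overlapped. The log2 difference of arrested minus competent was -0.46 (SE 0.14, 95% interval -0.79 to -0.13, unadjusted p = 0.011, adjusted p = 0.315), so it did not pass over all genes. By fragment share it was -0.50 with an adjusted p of 0.125, the smallest of any member in any setting. For competent minus control it was 0.24 (adjusted p = 0.954). Only 1 transcript of the gene was above 0, and it needs no division among transcripts.

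Of the other HSP70 and HSP110 genes, Hspa4l, a testis-enriched relative of Hspa4, was between 2.06 and 5.74 FPKM. The level of Hspa4 per kb was between 28.4 and 31.8 times that of Hspa4l in control and competent libraries. In the arrested ones it was between 18.4 and 22.1 times. These ratios depend on the length used for Hspa4l, a model of 9479 bases with a median of 28.4% of its FPKM. A model of 2744 bases held a median of 48.6%. By mean FPKM over the libraries, Hspa4 stood at 57.8 and Hspa4l at 3.97. Hsph1, the HSP110 induced by heat, was between 10.8 and 15.9 FPKM, Hspa13 between 7.78 and 15.8, and Hspa14, an HSP70 that binds ribosomes, between 16.7 and 27.1. None of these 4 had groups that stood clear of each other by FPKM. Hspa2, the HSP70 of spermatogenic cells, was listed at 0 in 2 control and 2 competent libraries. It had 7.04 FPKM in competent replicate 3, 0.817 FPKM in control replicate 1 and between 0.740 and 1.17 FPKM in the arrested libraries. The competent minus control difference of Hspa2, 0.71 (adjusted p = 0.963), rests on competent replicate 3.

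The FPKM of both HSP90 genes depended on how fragments were divided among transcripts. Hsp90ab1, the constitutive cytosolic HSP90, had 1091, 1169 and 1800 FPKM in the control libraries, 1473, 1197 and 1860 in the competent libraries, and 1137, 1543 and 1016 in the arrested libraries. The groups overlapped, with a log2 difference of -0.29 (95% interval -0.85 to 0.27, adjusted p = 0.710) for arrested minus competent. Of the FPKM of Hsp90ab1, 55.6% stood on annotated transcripts shorter than 1000 bases. A model of 703 bases, classed as subject to nonsense-mediated decay, held between 35.0% and 57.0%. A coding model of 656 bases was at 0 in 7 libraries. It had 565.5 FPKM in competent replicate 3 and 413.5 in arrested replicate 2, the highest libraries of their groups. By fragment share the arrested libraries (1535, 1766 and 1816 ppm) lay below the competent ones (2099, 1893 and 2240) without overlap, at a difference of -0.29 and an adjusted p of 0.485.

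Hsp90aa1, the inducible form, had 74.8, 234 and 51.2 FPKM in the control libraries, 69.8, 87.1 and 74.5 in the competent libraries, and 91.9, 68.0 and 78.5 in the arrested libraries. Control replicate 2 stood apart, and it alone had a value above 0, of 159 FPKM, for an annotated transcript of 427 bases. In 6 other libraries (control replicates 1 and 3, all competent libraries and arrested replicate 2) Cufflinks listed an assembled transcript at this gene in addition to the annotated ones. With assembled transcripts added, the FPKM was 202, 234 and 192 in control, 202, 193 and 222 in competent and 91.9, 216 and 78.5 in arrested libraries. The 2 low values belong to libraries with no assembled transcript listed at Hsp90aa1. On that scale the difference was -0.82 for arrested minus competent (95% interval -1.55 to -0.08, unadjusted p = 0.033, adjusted p = 0.343) and -0.84 for arrested minus control (unadjusted p = 0.030, adjusted p = 0.777), in place of 0.04 and -0.29. By fragment share control replicate 2 was no longer apart. The share was 276, 281 and 226 ppm in control, 268, 299 and 290 in competent and 245, 274 and 223 in arrested libraries, and the 95% interval of arrested minus competent was -0.49 to 0.07 in place of -1.0 to 1.08. The level of Hsp90ab1 per kb was between 7.42 and 14.1 times that of Hsp90aa1.

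**Figure D3:**
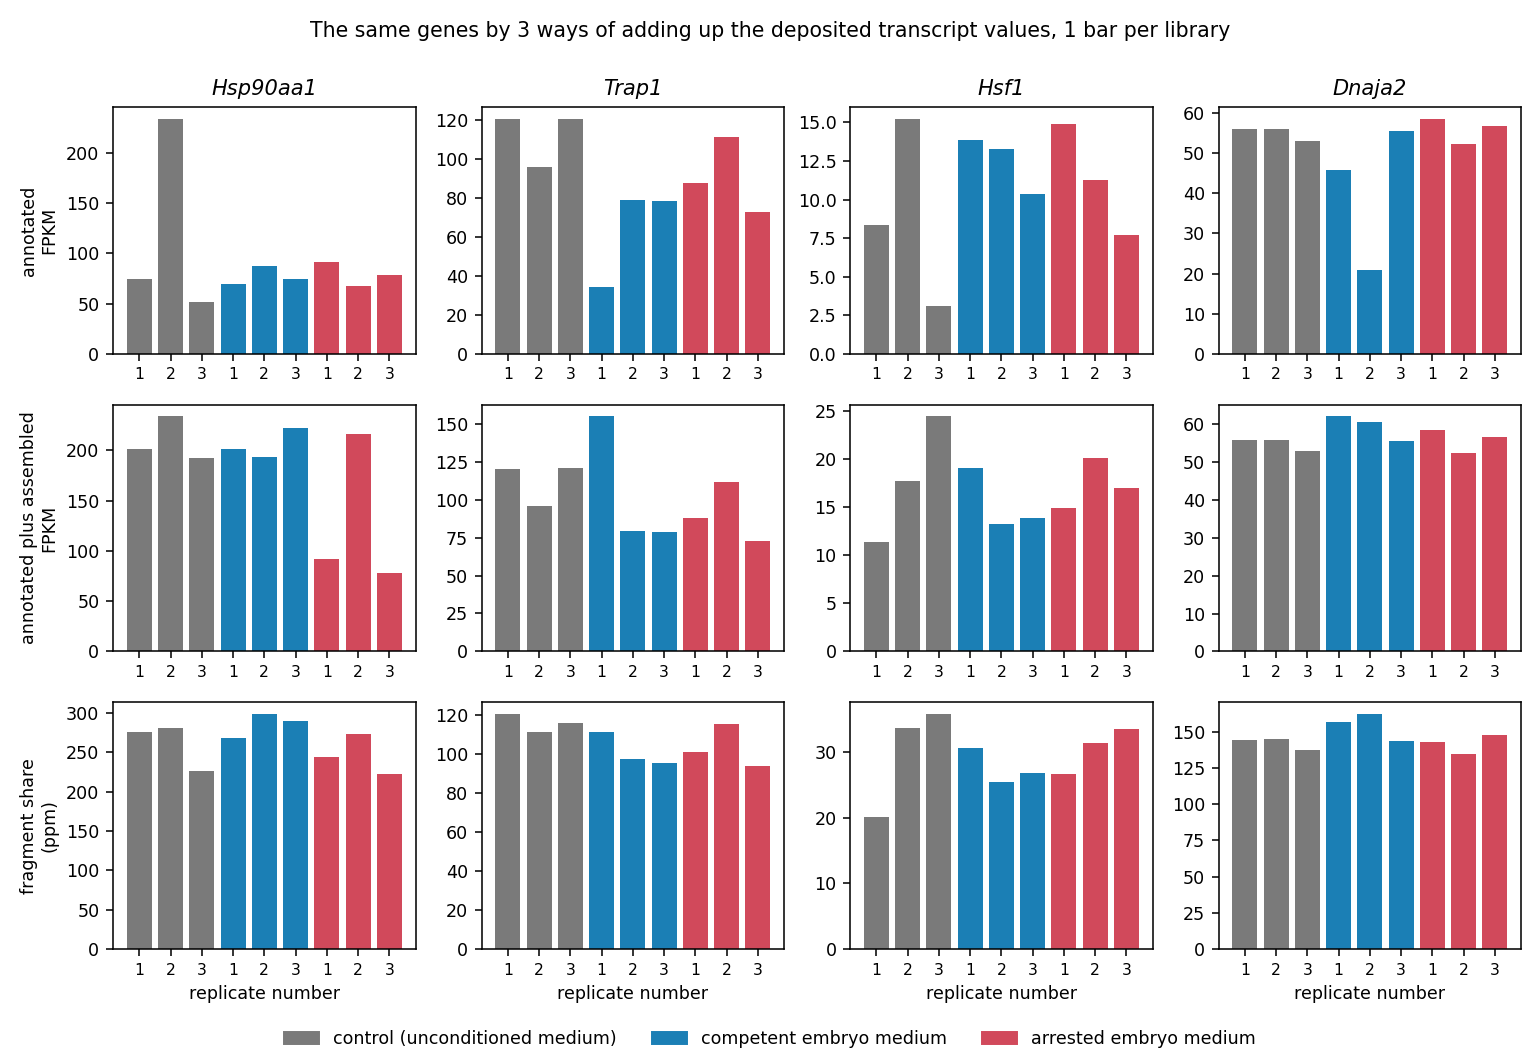
Bars show 1 library each (grey control, blue competent, red arrested) for Hsp90aa1, Trap1, Hsf1 and Dnaja2, as summed annotated FPKM (top row), FPKM with assembled transcripts added (middle) and fragment share in ppm (bottom), on linear axes from 0. The tall bar of control replicate 2 for Hsp90aa1 (234 FPKM) and the low bars of competent replicate 1 for Trap1 (34.3 FPKM) and competent replicate 2 for Dnaja2 (20.9 FPKM) have no counterpart in the fragment share.

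Of the small heat shock proteins, which hold unfolding proteins in solution without ATP, Hspb1 was by far the most abundant. Hspb1 (HSP27, chr5:136363789-136365433, plus strand) had 126, 144 and 112 FPKM in the control libraries, 120, 110 and 125 in the competent libraries, and 186, 132 and 158 in the arrested libraries. Every arrested library was above every competent one, and the arrested and control libraries overlapped. The log2 difference of arrested minus competent was 0.41 (SE 0.16, 95% interval 0.05 to 0.77, unadjusted p = 0.031, adjusted p = 0.369), and without arrested replicate 1 it was 0.29. That library had the lowest smooth muscle markers of all, and the part of this in the difference was not tested.

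Cryab and Hspb8, which are expressed in muscle of several kinds, were lower and more variable. Cryab had 20.7, 20.1 and 11.8 FPKM in control, 7.03, 17.7 and 28.4 in competent and 21.7, 15.01 and 26.6 in arrested libraries. With assembled transcripts added, Cryab had 20.5 FPKM in competent replicate 1. Its arrested minus competent difference was 0.39 by annotated FPKM, 0.01 with assembled transcripts and -0.05 by fragment share. With assembled transcripts the arrested libraries (21.7, 22.3 and 26.6 FPKM) lay above all control libraries, at 0.44 (adjusted p = 0.852). Hspb8, a partner of Bag3 in the clearance of damaged filaments, had 17.7, 26.2 and 11.5, then 17.3, 22.8 and 20.4, then 12.8, 20.0 and 20.0 FPKM. In control replicate 2, 7.84 FPKM of Hspb8 came from a processed transcript that was at 0 in the other 8 libraries. By annotated FPKM and by fragment share the groups overlapped in both genes. Hspb7 ranged from 1.40 FPKM (arrested replicate 1) to 9.42 FPKM (competent replicate 3). Hspb6 was between 4.37 and 8.97 FPKM in 8 libraries and listed at 0 in competent replicate 2, the library with the highest summed smooth muscle markers. Hspb2 was listed at 0 in competent replicates 2 and 3, was 0.499 FPKM in competent replicate 1, and lay between 0.709 and 0.927 FPKM in the arrested libraries, above all competent ones; it was not tested. Cryab and Hspb2 are divergent neighbours, with 403 bases between them.

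**Figure D4:**
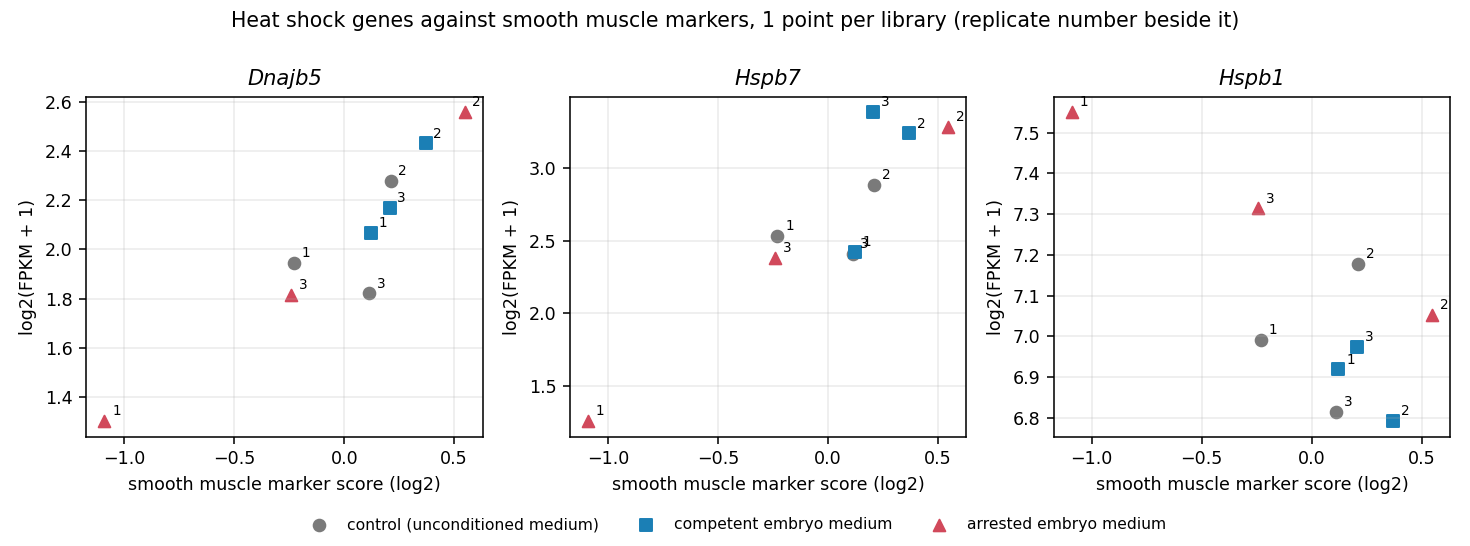
Each point is 1 library, with its replicate number; the x axis is the smooth muscle marker score (mean log2 deviation of the markers from their mean over the libraries) and the y axis log2(FPKM + 1) of Dnajb5, Hspb7 or Hspb1. Dnajb5 and Hspb7 are lowest in arrested replicate 1, the library of lowest score (-1.09), and Hspb1 is highest there.

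The levels of 2 members correlated with the smooth muscle markers of a library. The marker score averages all 12 markers, including Mylk, Actc1 and Myocd, which were listed at 0 in some libraries. By this score arrested replicate 2 was highest (0.547), and by summed FPKM competent replicate 2 was (2810). Dnajb5, a J-domain protein, correlated with the smooth muscle marker score over the 9 libraries at r = 0.936 (exact permutation p = 0.000245, adjusted over 36 members 0.00882) and rho = 0.983 (exact permutation p = 4.96e-05, adjusted 0.00179). Without the 2 libraries farthest from the median score, arrested replicates 1 and 2, r was 0.796 (exact permutation p = 0.0339, 7 libraries), and with group means removed it was 0.933. Hspb7, a small heat shock protein of muscle, had r = 0.914 (exact permutation p = 0.00157, adjusted 0.0283) and rho = 0.850 (exact permutation p = 0.00607, adjusted 0.109). Without the same 2 libraries its r was 0.684 (exact permutation p = 0.0942, 7 libraries), so past the threshold the relation rests on them, and with group means removed over all 9 libraries r was 0.897. For Hspb1 the sign was negative, with r = -0.763 (exact permutation p = 0.0201, adjusted 0.241), which did not pass. Skeletal muscle markers were low, at 3.26 to 31.8 FPKM summed over the measured genes, and Myh4 was at 0 in all libraries.

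In the mitochondria, Hspd1 (HSP60) forms a folding chamber that its lid, Hspe1 (HSP10), closes. Hspe1 (chr1:55144976-55148151, plus strand) had 258, 264 and 247 FPKM in the control libraries, 244, 292 and 250 in the competent libraries, and 315, 262 and 245 in the arrested libraries. Hspd1 (chr1:55134679-55145087, minus strand) had 86.3, 86.9 and 65.2, then 77.9, 102.6 and 77.0, then 82.9, 76.8 and 96.6 FPKM. Both genes overlapped between all groups, and for arrested minus competent the interval was -0.25 to 0.37 for Hspe1 and -0.40 to 0.40 for Hspd1, beside a median half-width of 0.46 over the members. The level of Hspd1 per kb was between 0.263 and 0.395 times that of Hspe1.

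The 2 genes start head to head. In the mm9 annotation their ends overlap by 112 bases. The RefSeq starts used below differ from these and lie apart, on either side of the heat shock units. The 2 genes share promoter DNA. Its heat shock units form 1 run of 18 bases, which reads on the plus strand for Hspe1 and as the reverse complement on the minus strand for Hspd1 (chr1:55088053-55088082, GRCm38.p6, RefSeq, with the units in capitals).
Hspe1: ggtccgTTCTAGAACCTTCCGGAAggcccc
Hspd1: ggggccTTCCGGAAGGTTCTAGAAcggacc
The run lies from 89 to 72 bases before the start of Hspe1 and from 144 to 127 bases before a start of Hspd1.

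Hspa9, the mitochondrial HSP70, was between 67.5 and 103 FPKM, and Dnaja3, its J-domain partner, between 17.3 and 33.0, with an arrested minus competent difference for Dnaja3 of -0.44 (95% interval -0.88 to 0.01, adjusted p = 0.432). Dnaja3 overlaps other annotated genes. Trap1 (chr16:4039971-4078410, minus strand), the mitochondrial HSP90, had 120, 95.8 and 121 FPKM in the control libraries, 34.3, 79.2 and 78.4 in the competent libraries, and 87.7, 111 and 72.5 in the arrested libraries. All competent libraries were below all control libraries, at a log2 difference of -0.89 (SE 0.31, 95% interval -1.60 to -0.18, unadjusted p = 0.020, adjusted p = 0.760). A transcript model of 512 bases, classed as subject to nonsense-mediated decay, held a median of 53.7% of the gene's FPKM and was at 0 in competent replicate 1. With assembled transcripts added the difference was -0.18 (adjusted p = 0.974) and competent replicate 1 had 155 FPKM, the highest of all. By fragment share the difference was -0.19 (95% interval -0.45 to 0.07), with 120, 111 and 116 ppm in control and 111, 97.1 and 95.3 in competent libraries.

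Among the J-domain proteins, Dnaja1, a cytosolic partner of HSC70, was the most abundant, with 370, 419 and 338 FPKM in control, 355, 307 and 254 in competent and 428, 419 and 336 in arrested libraries. The groups overlapped, at an arrested minus competent difference of 0.37 (95% interval -0.0030 to 0.75, adjusted p = 0.430). In Dnaja1, 82.7% of the FPKM stood on transcripts under 1000 bases; by fragment share the arrested libraries (392.8, 392.9 and 351.0 ppm) were just above the competent ones (350.6, 346.0 and 279.1), at 0.23 and an adjusted p of 0.455. Dnaja2 had 56.0, 56.0 and 52.9 FPKM in control, 45.8, 20.9 and 55.5 in competent and 58.5, 52.4 and 56.6 in arrested libraries. The gene has 1 annotated transcript, and Cufflinks listed an assembled one beside it in competent replicates 1 and 2. By fragment share, which counts both, competent replicate 2 had 162 ppm, the highest of the 9, and the range was 135 to 162. Dnajb1, the heat-inducible HSP40, spanned only 1.34-fold over the 9 libraries, at 18.8 to 25.1 FPKM, Dnajb4 lay between 13.1 and 22.9, and Dnajc5, a J-domain protein of secretory vesicles, lay between 21.0 and 47.9, with control replicate 3 the highest.

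Dnajb6 (chr5:30062228-30113018, plus strand), which keeps aggregation-prone proteins soluble, had 45.7, 43.5 and 41.3 FPKM in the control libraries, 51.0, 57.3 and 49.0 in the competent libraries, and 52.7, 46.9 and 47.5 in the arrested libraries. Both embryo groups lay above all control libraries. The difference was 0.26 (95% interval -0.03 to 0.55, adjusted p = 0.915) for competent minus control and 0.17 (-0.12 to 0.45, adjusted p = 0.910) for arrested minus control. By fragment share the competent libraries stayed clear of control, and the arrested ones (83.1, 80.4 and 96.5 ppm) overlapped control (77.3, 81.3 and 73.1). Its promoter holds 3 units in a row, from 46 to 34 bases before the start, shown in capitals with the bases around them (chr5:29735843-29735872, plus strand, GRCm38.p6, RefSeq).
Dnajb6: cagctccgaGAATCTTCCGGAAcgctagac

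Of the co-chaperones, Stip1 (HOP), which links HSP70 to HSP90, had 43.1, 48.1 and 33.1 FPKM in control, 42.5, 47.1 and 40.5 in competent and 36.8, 35.9 and 37.7 in arrested libraries. All arrested libraries were below all competent ones, by 0.23 log2 units in the mean (95% interval of arrested minus competent -0.59 to 0.13, adjusted p = 0.628), while the control libraries overlapped both. Bag3, an exchange factor induced by stress, had 13.03, 15.9 and 15.1 FPKM in control, 16.1, 17.9 and 17.6 in competent and 12.8, 16.5 and 23.3 in arrested libraries. The competent libraries lay just above control, at 0.22 (95% interval -0.25 to 0.69, adjusted p = 0.960), and the arrested libraries spanned both. Bag1, another exchange factor, had 80.9, 85.7 and 70.2, then 83.9, 87.4 and 89.0, then 94.7, 69.4 and 123 FPKM, and Ahsa1, which activates the ATPase of HSP90, had 85.5, 85.9 and 59.4, then 75.3, 80.4 and 56.5, then 87.98, 74.6 and 87.2 FPKM. In these 2 genes all groups overlapped. The low Ahsa1 values in control replicate 3 and competent replicate 3 belong to libraries with an assembled Ahsa1 transcript. By fragment share the range of Ahsa1 was 1.22-fold.

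TRiC folds actin and tubulin in a double ring of related subunits. Cct2 had 139, 139 and 154 FPKM in control, 152, 164 and 145 in competent and 152, 131 and 152 in arrested libraries. Its total range in annotated FPKM was 1.25-fold, the narrowest of the 35 genes above 0 in every library. By fragment share its range was 1.28-fold, wider than that of Dnaja2 and of Cct5 (1.21-fold each). Cct5 had 209, 190 and 134, then 206, 191 and 142, then 179, 214 and 213 FPKM. The lowest value of each group belongs to a library with an assembled Cct5 transcript (control replicate 3, competent replicate 3 and arrested replicate 1). With assembled transcripts added, these libraries had 259, 214 and 276 FPKM. Tcp1 had 260, 122 and 232, then 189, 128 and 238, then 349, 285 and 161 FPKM. The groups overlapped in all 3. In Tcp1 a retained-intron model of 578 bases was at 0 in 3 libraries and held up to 57.4% of the FPKM elsewhere, and the gene overlaps its neighbours. By fragment share Tcp1 was 357, 295 and 307 ppm in the arrested libraries and 231, 240 and 291 in the competent ones, at 0.33 (95% interval 0.0047 to 0.66, adjusted p = 0.310).

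The heat shock factors were expressed at low levels and had wide intervals, with a median half-width of 0.99 log2 units for arrested minus competent, beside 0.46 over the members. Hsf1 had 8.34, 15.2 and 3.10 FPKM in control, 13.8, 13.3 and 10.4 in competent and 14.9, 11.3 and 7.73 in arrested libraries. Hsf2 had 4.29, 6.30 and 2.77, then 0.843, 4.48 and 1.46, then 2.78, 4.38 and 5.68 FPKM. The groups overlapped in both genes, and the interval of every comparison reached 2-fold. By fragment share, with 10 assembled transcripts for Hsf1 and 8 for Hsf2, the arrested minus competent interval was -0.35 to 0.62 for Hsf1 and -0.10 to 0.91 for Hsf2, both within 2-fold.

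The members whose groups did not overlap can be counted beside those of all genes. By FPKM there were 3 of 36 in arrested against competent, beside 17.2% of all genes tested: Hspb1 was higher, beside 8.05%, and Hspa4 and Stip1 were lower, beside 9.2%. In competent against control there were 4, beside 15.4%: Hspa4, Dnajb6 and Bag3 were higher, beside 7.05%, and Trap1 was lower, beside 8.4%. In arrested against control there was 1, beside 9.13%: Dnajb6 was higher, beside 3.59%, and 0 members were lower, beside 5.54%. By fragment share the counts were 11, 3 and 2 of 36, beside 20.6%, 18.6% and 10.2% of all genes. The 11 were Hspa8, Hspb1, Dnaja1, Cct5 and Tcp1, higher in the arrested libraries, and Hspa4, Hspa14, Hsp90ab1, Dnaja3, Dnajc5 and Stip1, lower. None of the 36 passed the threshold by fragment share, where 0.646% of all genes did in arrested against competent and 0 genes did in either comparison with control. At an unadjusted p under 0.05 the fragment share of 4 members differed in arrested against competent, beside 15.9% of all genes.

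The promoters of the set were read in RefSeq windows of 250 bases before to 50 bases after each annotated start (GRCm38.p6). 29 of the 38 genes had such windows, 41 in all. The other 9 had no window and were not read: Hspa8, Hspa13, Hsp90aa1, Hsp90ab1, Hspb2, Cryab, Hspa9, Dnajc5 and Hsf1. A pair of facing heat shock units, GAANNTTC or TTCNNGAA (each its own reverse complement, so both strands are read at once; overlapping pairs were counted), was present in 16 of the 41 windows (39.0%), beside 15.1% of all 32851 windows. Besides the genes already shown, Hsph1, Hspb1, Hspb6, Hspb8, Dnaja1, Dnajb4, Bag3, Cct2 and Cct5 had a window with a pair. Runs of at least 3 alternating units were in 6 windows (14.6%), of Hsph1, Hspd1, Hspe1 and Dnajb6, beside 0.603% of all windows. In the Hsph1 window farthest upstream, the run lies after the start, at positions 36 to 48. Member windows had a median GC content of 62.7%, beside 52.7% of all windows, and the CCAAT box (CCAAT or ATTGG) was in 43.9% beside 37.4%. A match is only a description of these letters; no binding was measured.

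The rest of the chaperone network, 89 further genes in 7 lists, was tested in the same fit. Of 74 tested, 0 rose and 0 fell past the threshold in any of the 3 comparisons, and in arrested against competent 2 were higher and 3 lower at an unadjusted p under 0.05, beside 11.7% of all genes tested in either direction. Cdc37, which loads kinases onto HSP90, had 67.9 ± 3.89 FPKM in control, 90.0 ± 6.92 in competent and 67.8 ± 7.83 in arrested libraries (SD, 3 libraries each), and its arrested minus competent difference was -0.41 (adjusted p = 0.330). Its fragment share was 217, 189 and 201 ppm in the competent libraries and 264, 161 and 227 in the arrested ones, so the groups overlapped by that measure. Among the other TRiC and prefoldin subunits, Cct6a had a difference of -0.99 (unadjusted p = 0.015, adjusted p = 0.328). By fragment share Cct6a was 161, 238 and 203 ppm in the competent libraries and 196, 189 and 204 in the arrested ones, so the groups overlapped. Pfdn5, a prefoldin subunit, was the most abundant of that list and had a difference of 0.42 (adjusted p = 0.369). The co-chaperones St13, which had the highest mean FPKM of its list at 394.5, and Bag5 had differences of -0.08 and 0.31.

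Sqstm1, an HSF1 and stress target that carries ubiquitinated cargo to autophagy, had 230 ± 10.8 FPKM in control, 167 ± 29.2 in competent and 168 ± 22.9 in arrested libraries, at -0.48 (adjusted p = 0.748) and -0.46 (adjusted p = 0.867) against control. By fragment share all 3 groups of Sqstm1 overlapped, with 257, 247 and 349 ppm in control, 250, 220 and 242 in competent and 249, 290 and 343 in arrested libraries. Ubb, a polyubiquitin gene, lay between 1195 and 1727 FPKM with overlapping groups. The 13 chaperones of the endoplasmic reticulum, which answer to the unfolded protein response and not to HSF1, had a median arrested minus competent difference of -0.18, with 12 negative, beside 51.2% of all genes, and 0 past the threshold. Calr, one of these, had 281 ± 50.2 FPKM in control, 329 ± 40.8 in competent and 224 ± 29.6 in arrested libraries, at -0.55 (adjusted p = 0.315). By fragment share Calr was 315, 316 and 523 ppm in the arrested libraries and 438, 543 and 540 in the competent ones, which overlap. Pdia6, a disulfide isomerase, had the highest mean FPKM of these chaperones, at 330.2 beside 325.6 for Pdia3, and a difference of 0.11. Dnajb11, an ER J-domain protein, had a difference of -0.61 (adjusted p = 0.461).

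Of the other heat shock family genes, Hspbap1, which encodes a protein that binds HSPB1, was the second of the 2 genes with a higher value at an unadjusted p under 0.05, beside Pfdn5. Hspbap1 had 0.665, 0 and 0.998 FPKM in competent and 1.51, 1.14 and 2.27 in arrested libraries, at a difference of 0.80 (unadjusted p = 0.041, adjusted p = 0.401). By fragment share Hspbap1 was 6.17, 5.42 and 4.19 ppm in competent and 5.97, 4.74 and 9.59 in arrested libraries, so the groups overlapped. Hspb11, a protein of intraflagellar transport, had a difference of 0.49 (adjusted p = 0.426). Hsbp1, which binds HSF1 and had the highest mean FPKM of the list at 92.7, had a difference of 0.15 (adjusted p = 0.909). Among the HSF1 targets Dedd2 was listed at 0 FPKM in 2 control libraries and had an arrested minus control difference of 1.498 (adjusted p = 0.89985). By fragment share Dedd2 was 13.1, 20.1 and 19.4 ppm in control and 15.9, 17.2 and 14.9 in arrested libraries, which overlapped. The mitochondrial proteins Clpx, Clpb and Timm44 and the J-domain proteins Dnajb9, Dnajc8 and Dnajc13 had adjusted p-values of 0.437 or more in arrested against competent.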

How the data were processed

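RNA-seq of 9 mouse uterus libraries (3 groups of 3) was used. The authors aligned reads to mm9 with Bowtie 0.12.2 and estimated transcripts with Cufflinks, per the submitters' processing notes, and deposited FPKM for annotated and assembled transcripts with their coverage; the coverage column served only as a depth measure. The annotation's coordinates equal GENCODE vM1 for 98.87% of the transcripts, and symbols were taken from it. Annotated FPKM was summed by gene. Testing required a mean over the libraries of 1 FPKM or more and left out 1294 genes listed at 0 in 1 or more libraries whose other libraries averaged over 5 FPKM, for a total of 12039. Differences came from limma 3.58.1 (R 4.3.3) on log2(FPKM + 1), 1 fit over all libraries with a mean trend, and Benjamini-Hochberg adjustment over all genes tested within a comparison. Folds on this scale understate the change of low genes. The script was tested on simulated data. The members and gene lists were chosen with earlier results of these data known. Genes are given library by library where groups did not overlap or where they are the 3 of highest mean FPKM in a role. The HSP70 and HSP90 genes named constitutive or inducible are given so too. From other lists, the gene of highest mean FPKM is named, with up to 2 of smallest p in the test among the 3 groups. Alternatives covered pseudocount, filters, scaling, gene value, variance model, replicate block and each library left out. Correlations used exact permutation tests, computed in Python 3.11.15.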

Additional observations from a re-analysis of the deposited data

How the results depend on the processing

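Across 25 other settings, 0 of 2672 values of single members passed the threshold; 147 changed sign, all of differences that had not passed. The smallest adjusted p over all was 0.125 (Hspa4, fragment share). The median over the members ranged from -0.049 to 0.018 (arrested minus competent), -0.013 to 0.121 (competent minus control) and -0.025 to 0.081 (arrested minus control); the competent minus control median was lowest, -0.013, without control replicate 3. None of them moved the median of all genes by more than 0.040. Counts over all genes did depend on the setting; the cause was not tested. In the order arrested minus competent, competent minus control, arrested minus control and any difference among groups, 11, 3, 1 and 6 genes passed. With failed estimates kept, 18, 6, 7 and 13 passed, and with failed estimates judged within groups 22, 8, 7 and 18. By fragment share 89, 0, 0 and 27 passed. Without a filter on mean FPKM the first 3 were 6, 7 and 4. With assembled transcripts added the first 2 were 31 and 1. Without the mean trend, arrested minus competent gave 4, arrested minus control 0 and any difference 3. With the highest transcript only, arrested minus control gave 0 and any difference 2, and with quantile normalization arrested minus control gave 2. Fitting only the 2 groups compared gave 0 for arrested minus competent and 0 for arrested minus control. Leaving out 1 library in turn gave 0 to 38, 0 to 5, 0 to 5 and 0 to 13 genes. Whether the replicate numbers pair the libraries was not settled. Deviations from the group means correlated at -0.069 to 0.175 between same-numbered libraries and at -0.126 to 0.142 between differently numbered ones. Not every library correlated best with its own number. With the replicate block 0, 0, 0 and 0 genes passed, and with the fragment share and replicate block together, a setting chosen after seeing the data, 73, 0, 0 and 1; in both, 0 members passed. Read counts were not used here, so the precision of low genes such as Hspa2, Hspb2 and Hsf2 is known only from the spread between libraries.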
